A study of Mus musculus with 10 samples.

Results

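The genes described here encode tumour necrosis factor (TNF), interleukin-6 (IL-6), oncostatin M, their receptors and the feedback inhibitors A20 and SOCS3. They were Tnf, Tnfrsf1a, Tnfrsf1b, Tnfaip3, Il6, Il6ra, Osm, Osmr, Lif and Socs3. A gene entered through any array probe whose accession was paired with its symbol, and the probe with the highest mean over the 10 arrays stood for it. This gave 9 of the 10 genes, with 13 probes, out of 19096 genes with a named probe. Lif is not analysed here. RNA came from 5 whole lung samples of wild-type (WT) mice of genotype Lkb1f/f and from 5 samples of whole lung squamous cell carcinoma (SCC) of CCSPiCreLkb1f/f mice, 1 array per sample. The labels give the strain of all mice as B6.129 and their age as 13 months. The floxed Lkb1 alleles were thus present in both groups, and iCre, which deletes Lkb1 in cells of the airway epithelium where the CCSP promoter is active, was present in the tumour-bearing mice alone. The labels do not tie each array to a separate animal, so p-values measure the spread between these samples.

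TNF is a cytokine made largely by activated macrophages and lymphocytes. It binds TNF receptor 1 (Tnfrsf1a), found on most cells, and TNF receptor 2 (Tnfrsf1b), found mainly on immune and endothelial cells, and both feed into the transcription factor NF-kB. IL-6 and oncostatin M act through receptors that join Il6ra or Osmr to a shared signalling chain, gp130 (Il6st). These receptors activate JAK kinases and the transcription factor STAT3. The same signals induce their own brakes: SOCS3 shuts down gp130 signalling, and A20 (Tnfaip3) and IkB alpha (Nfkbia) restrain NF-kB. In inflamed and tumour-bearing lung these cytokines are known for inducing acute phase proteins.

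The sequences just upstream of these genes hold letters that NF-kB and STAT factors are known to bind, and they are shown here because the members differed in what they carry. RefSeq promoter windows (build GRCm38.p6), from 250 bases before to 50 bases after the start site, were found for 8 of the 9 measured genes. Both strands were searched for the kappaB consensus, for TTCNNNGAA, the core bound by STAT factors, and for TGANTCA, the core bound by AP-1. The kappaB consensus was in the windows of Il6 and Tnfaip3, 2 of 8 genes, and in 8.46% of all 32851 windows. TTCNNNGAA was in those of Tnfrsf1a, Tnfrsf1b and Socs3, 3 of 8, and in 8.3% of all windows. TGANTCA was in those of Il6, Tnfaip3 and Osmr, 3 of 8, and in 7.81% of all windows. A gene counted if any of its windows held a match, whereas the shares are per window. Tnfaip3 had 2 windows, and the second held no match. The stretches below run 5′ to 3′ on the strand of the gene and end before the start site, with the match in capitals.
Il6, kappaB match 44 to 35 bases before the start, chr5:30013040-30013109, plus strand: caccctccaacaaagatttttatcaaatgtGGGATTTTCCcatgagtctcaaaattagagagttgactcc
Tnfaip3, kappaB match 12 to 3 bases before the start, chr10:19015411-19015452, minus strand: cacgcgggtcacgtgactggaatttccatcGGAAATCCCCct
Socs3, TTCNNNGAA match 154 to 146 bases before the start, chr11:117969482-117969550, minus strand: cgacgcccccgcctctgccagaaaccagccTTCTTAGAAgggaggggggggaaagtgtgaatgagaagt
Tnfrsf1b, TTCNNNGAA match 181 to 173 bases before the start, chr4:145247013-145247081, minus strand: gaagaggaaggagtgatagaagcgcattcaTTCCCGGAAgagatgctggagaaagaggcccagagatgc
Tnfrsf1a, TTCNNNGAA match 244 to 236 bases before the start, chr6:125349473-125349517, plus strand: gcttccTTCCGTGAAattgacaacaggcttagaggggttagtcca
The kappaB match of Tnfaip3 shown is the nearer of 2, and no match overlapped another. The windows of Tnf and Il6ra held none of these letters. A match is a string of letters, and binding was not measured.

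Before the genes are taken one by one, some facts of the arrays bear on all of them. Values are log2 of the quantile-normalized processed intensity, differences are SCC minus WT on that scale, and a probe is tested if it was well above background on at least 4 of the 5 arrays of a group. A gene was called where limma gave an adjusted p under 0.05 and the groups were 2-fold apart or more. Between 71.0% and 74.5% of probes were well above background on 9 arrays, and 90.2% were on SCC replicate 5. SCC replicate 2 stood apart from the other tumours. It was the lowest of the 5 SCC arrays for all 7 tested squamous and all 10 tested neutrophil markers and the highest for all 8 endothelial ones. Against the labels, 7 of 7 tested squamous markers were called higher in SCC. Krt6a, Dsg3 and Pkp1 were above background on no WT array, so they could be tested only through the SCC arrays. The arrays lay on 3 slides, and only slide 2 held both groups, with WT replicate 5 and SCC replicates 1 to 3. In whole tissue, fewer cells of a type and less RNA per cell cannot be told apart.

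Of the 9 measured genes, 5 were called higher in SCC (Il6, Tnf, Socs3, Osm and Tnfrsf1b), 0 were called lower and 4 were not called (Tnfrsf1a, Tnfaip3, Il6ra and Osmr). Over all 15586 tested genes, 11.6% were called higher and 13.4% lower. At an unadjusted p below 0.05, 1 member was lower with limma and 1 with the methods' t-test. The median difference of the members was 1.00, and that of all tested genes was -0.04. Thus the 3 cytokine genes and 1 of the 2 feedback genes rose, whereas of the 4 receptor genes only Tnfrsf1b passed. For 8 of the 9 members the lowest tumour was SCC replicate 2, as for 30.6% of all tested genes, and for Tnfrsf1a it was the highest.

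**Figure D1:**
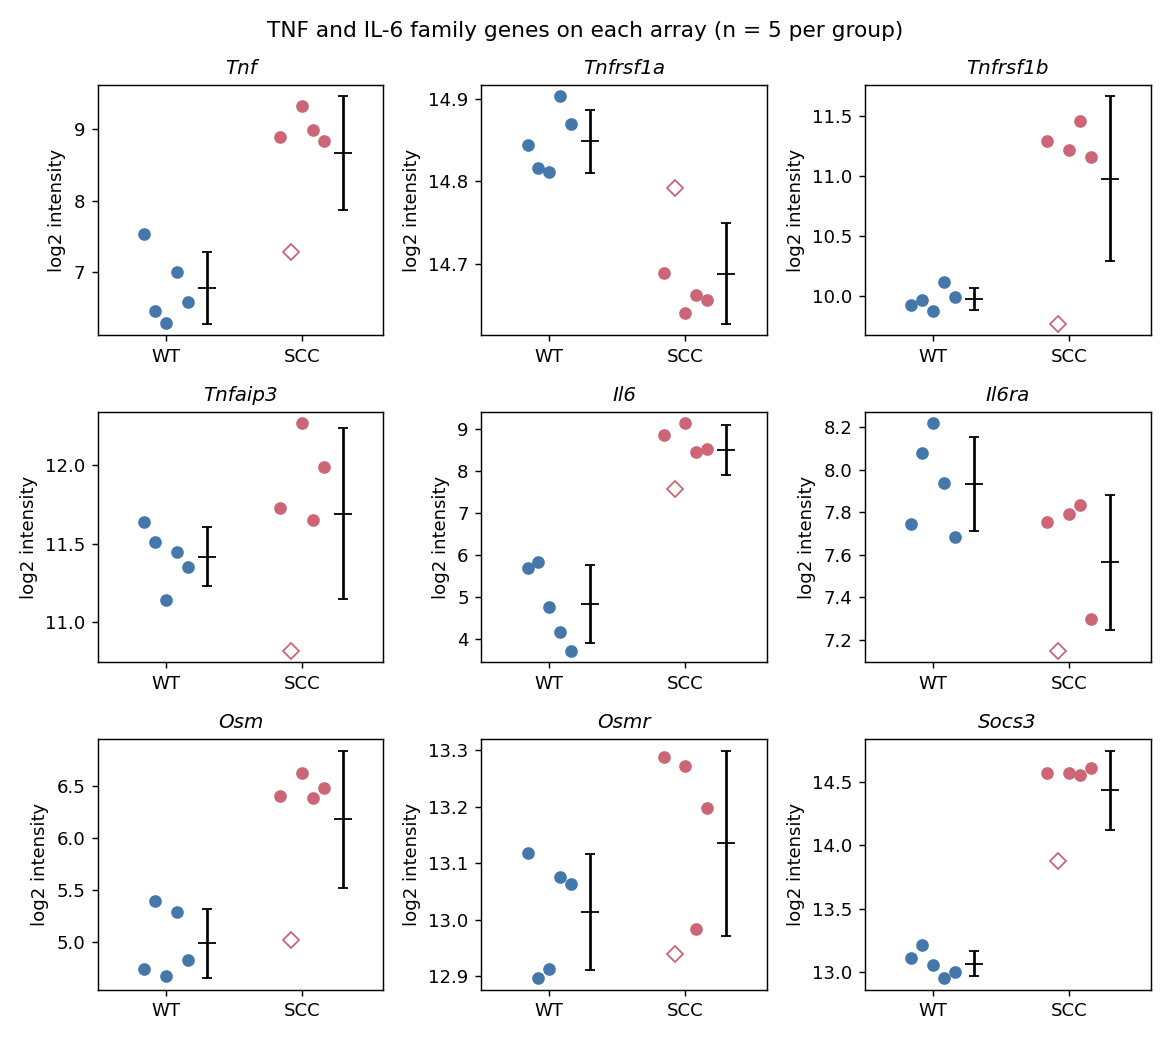
Log2 quantile-normalized intensity of the 9 measured genes on each of the 5 WT (blue) and 5 SCC (red) arrays, with each gene on its own vertical scale; open diamonds mark SCC replicate 2, and the black bars give the mean and SD of each group. Il6 and Socs3 lie higher on every SCC array than on any WT array, and for Tnf, Osm and Tnfrsf1b SCC replicate 2 falls into or below the WT range.

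Il6 showed the largest difference among the members. On the WT arrays it was at 5.68, 5.83, 4.75, 4.16 and 3.71 (replicates 1 to 5), and it was well above background on 3 of them. On the SCC arrays it was at 8.84, 7.56, 9.12, 8.44 and 8.51, well above background on all 5. Every tumour was above every WT lung, including SCC replicate 2, which was the lowest of the tumours. The mean rose from 4.83 ± 0.93 to 8.49 ± 0.59 (SD, n = 5 each), a difference of 3.67 (SE 0.45, 95% confidence interval 2.66 to 4.67), or 12.7-fold (limma adjusted p 0.000147). The exact two-sided permutation p was 0.00794, the smallest that 5 against 5 arrays can give. Il6 was dim in WT lung. With normexp, which starts from the median spot and surround signals and adds an offset, the difference was 1.74 (limma adjusted p 3.47e-05). Within slide 2 the 3 SCC arrays were at 7.56 to 9.12 against 3.71 on the WT array, a difference of 4.80 (limma adjusted p 0.18).

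Tnf, the ligand of both TNF receptors, was at 7.54, 6.47, 6.30, 7.01 and 6.59 on the WT arrays. On the SCC arrays it was at 8.88, 7.28, 9.31, 8.98 and 8.83. The groups overlapped through SCC replicate 2, which lay below WT replicate 1, and the other 4 tumours were all above the WT lungs. The mean was 6.78 ± 0.50 in WT and 8.66 ± 0.79 in SCC (SD, n = 5 each), 3.67-fold (95% confidence interval of the log2 difference 1.02 to 2.73, exact permutation p 0.0159). The difference was 2.21 without SCC replicate 2 (limma adjusted p 7.62e-05) and 1.23 with normexp (limma adjusted p 0.0016). With slide as a fixed block it was 1.91 and did not pass (limma adjusted p 0.136), and within slide 2, with 3 of 3 SCC arrays above the WT array, the adjusted p was 0.339.

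Osm encodes oncostatin M, an IL-6 family cytokine made by neutrophils, macrophages and T cells. It was dim, at 4.75, 5.40, 4.67, 5.29 and 4.83 in WT and at 6.40, 5.02, 6.63, 6.38 and 6.49 in SCC. SCC replicate 2 lay among the WT values, and the other 4 tumours lay close together above all WT lungs. SCC exceeded WT by 1.20 (SE 0.31), with an exact permutation p of 0.0238 and a limma adjusted p of 0.00937, and by 1.48 without SCC replicate 2. With normexp it passed the adjusted threshold at 0.48 but was under 2-fold, and with slide as a fixed block it was 1.19 and did not pass (limma adjusted p 0.219). Within slide 2 all 3 SCC arrays were above the WT array (limma adjusted p 0.435). A second Osm probe was above background on 1 of 10 arrays and was not tested.

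Turning to the receptors, Tnfrsf1b, which encodes TNF receptor 2, was nearly constant in WT lung, at 9.93, 9.97, 9.88, 10.12 and 9.99. In SCC it was at 11.29, 9.77, 11.22, 11.45 and 11.16. SCC replicate 2 was below the lowest WT lung, and the other 4 tumours were over 1 log2 unit above the highest. SCC exceeded WT by 1.00 (SE 0.29), with an exact permutation p of 0.0476 and a limma adjusted p of 0.0162, and at 2.001-fold this was barely past the threshold. It was 1.31 without SCC replicate 2 (limma adjusted p 2.87e-06). Leaving out any of 7 other arrays took it below 2-fold, with differences down to 0.88 without SCC replicate 4. A dimmer probe of the gene differed by 0.39 and did not pass (limma adjusted p 0.0776). With slide as a fixed block the difference was 0.77 (limma adjusted p 0.372), and within slide 2, where 2 of 3 SCC arrays exceeded the WT array, the adjusted p was 0.59.

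Tnfrsf1a, which encodes TNF receptor 1, moved little. It was at 14.84, 14.82, 14.81, 14.90 and 14.87 in WT and at 14.69, 14.79, 14.64, 14.66 and 14.66 in SCC. Every tumour was below every WT lung, although the groups were 0.16 apart (95% confidence interval of the difference -0.32 to -0.00096, limma adjusted p 0.0877). The exact permutation p was 0.00794. The groups did not overlap for 3 of the 9 members (Il6, Socs3 and Tnfrsf1a) and for 41.4% of all tested genes. Without SCC replicate 2 Tnfrsf1a was at -0.19 and passed the adjusted p (limma, 0.0209), far under 2-fold.

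The receptor chains of the IL-6 family showed no call among the members. Il6ra, which binds IL-6, ranged from 7.68 to 8.22 (median 7.94) in WT and from 7.15 to 7.83 (median 7.75) in SCC. The groups overlapped, and the difference was -0.37 (95% confidence interval -0.75 to 0.012, limma adjusted p 0.0979). A second Il6ra probe differed by -0.34 (limma adjusted p 0.0734). Osmr, the oncostatin M receptor, ranged from 12.90 to 13.12 in WT and from 12.94 to 13.29 in SCC. Its difference was 0.12 (95% confidence interval -0.11 to 0.35, limma adjusted p 0.341), and its second probe differed by 0.07 (limma adjusted p 0.841).

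The feedback genes differed from each other. Socs3 was at 13.11, 13.21, 13.06, 12.95 and 13.00 in WT and at 14.57, 13.88, 14.57, 14.55 and 14.61 in SCC. All tumours were above all WT lungs, and SCC replicate 2 lay between the WT lungs and the other 4 tumours, which were almost equal. The mean rose from 13.07 ± 0.10 to 14.44 ± 0.31 (SD, n = 5 each), a difference of 1.37 (SE 0.15, 95% confidence interval 1.04 to 1.70, limma adjusted p 6.98e-05) or 2.58-fold. Its size was the steadiest of the called members, between 1.32 and 1.51 over all alternatives, and it passed with slide as a fixed block (1.34, limma adjusted p 0.0234). Within slide 2 it was 1.34 as well (limma adjusted p 0.222).

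Tnfaip3, which encodes the NF-kB inhibitor A20, was at 11.64, 11.51, 11.14, 11.45 and 11.35 in WT and at 11.73, 10.82, 12.26, 11.65 and 11.99 in SCC. SCC replicate 2 was below every WT lung, and the other 4 tumours were above every WT lung, 1 of them narrowly. The difference of 0.27 (95% confidence interval -0.27 to 0.81) did not pass (limma adjusted p 0.37). Without SCC replicate 2 it was 0.49 and passed the adjusted p (limma, 0.02), but not 2-fold. Of the 2 genes with a kappaB match shown above, Il6 was called and Tnfaip3 was not. Of the 3 with TTCNNNGAA, Socs3 and Tnfrsf1b were called and Tnfrsf1a was not. With TGANTCA, Il6 was called and Tnfaip3 and Osmr were not. Of the genes without a match, Tnf was called and Il6ra was not, and Osm, also called, had no window. A link between match and call was not tested.

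**Figure D2:**
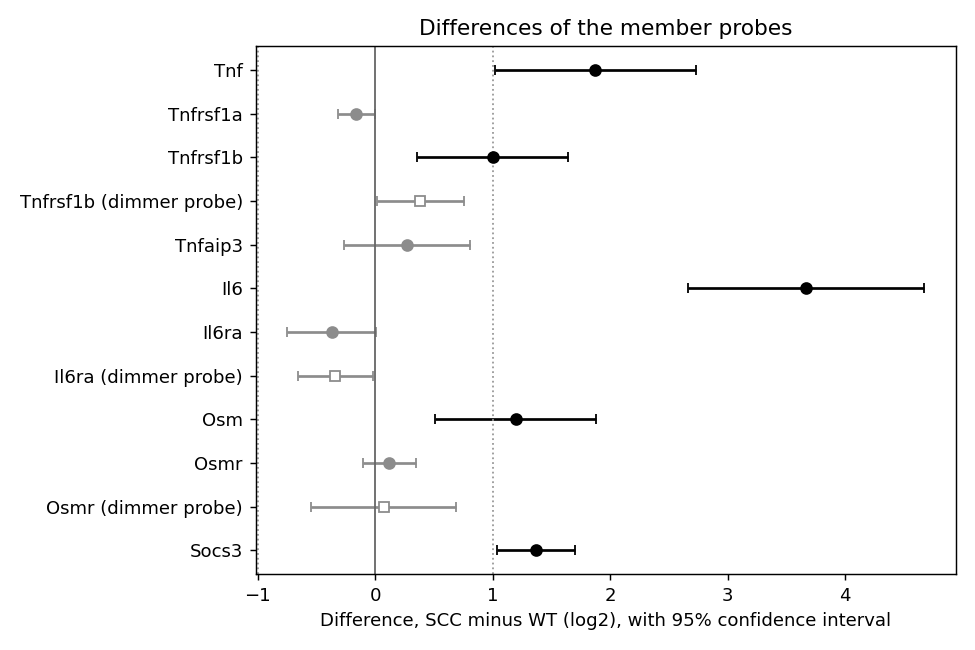
Difference SCC minus WT (log2) of the 12 tested member probes with its 95% confidence interval from limma; black marks called probes, grey those not called, open squares the dimmer probes of a gene, and dotted lines 2-fold. Il6 lies farthest from 0 at 3.67, and Tnfrsf1b lies on the 2-fold line at 1.00 with its dimmer probe at 0.39.

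**Figure D3:**
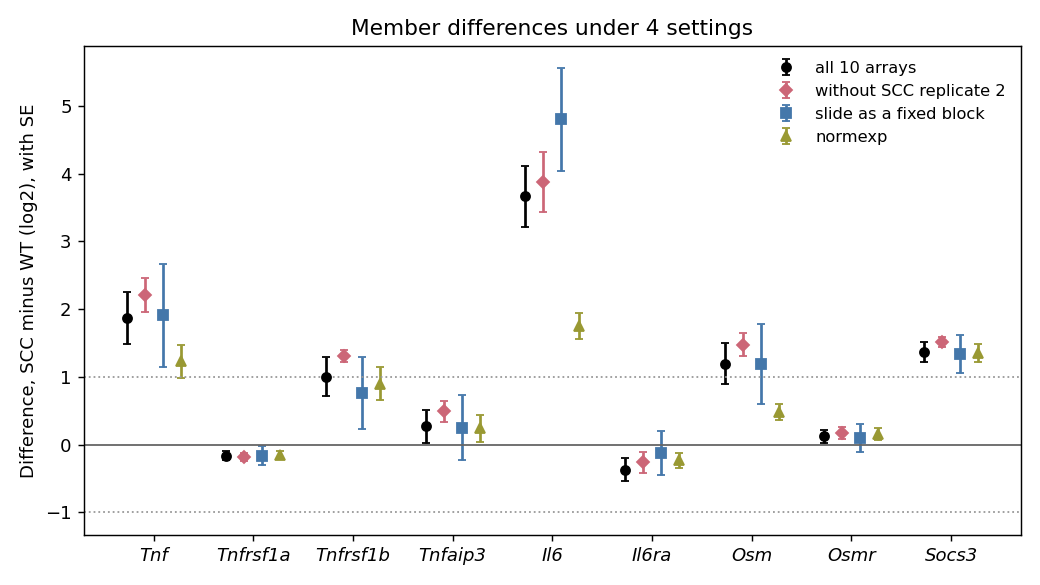
Difference SCC minus WT (log2, with SE) of the 9 genes with all 10 arrays, without SCC replicate 2, with slide as a fixed block and with normexp background correction; dotted lines mark 2-fold. Each gene keeps its direction in the 4 settings, Il6 drops from 3.67 to 1.74 with normexp, and the error bars widen with the slide block.

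Markers of the immune cells differed in their counts. Of 10 tested neutrophil markers 5 were called higher in SCC (50%, against 11.6% of all tested genes) and 0 lower (against 13.4%). None had a negative difference. The summed signal of the list on an array (log2 of the sum of linear intensities) was 14.77 to 15.57 in WT and 14.11 to 16.92 in SCC. SCC replicate 2 was at the low end. No marker of the list was below background on every array of a group. Of 9 tested macrophage markers 1 was called higher (Cd68, by 1.95) and 1 lower (Cd163, at -2.70). These shares of 11.1% each were near the 11.6% and 13.4% of all tested genes. The summed level of the macrophage markers was 17.63 to 17.91 in WT and 17.52 to 17.96 in SCC. T cell markers (5 of 7, 71.4%) and B cell markers (4 of 5, 80%) were called lower, against 13.4% of all tested genes. Neutrophils and macrophages are known sources of Tnf, Osm and Tnfrsf1b transcripts, and their part in these differences was not tested.

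Of 14 tested TNF superfamily ligands other than Tnf, 2 were called higher (14.3%, against 11.6% of all tested genes) and 4 lower (28.6%, against 13.4%), with a median difference of -0.52. Tnfsf18, the ligand of the T cell receptor GITR, was higher by 2.68 (limma adjusted p 0.00141), and Tnfsf11, which encodes RANKL, by 1.54 (limma adjusted p 0.00917). Both were above background on only 1 WT array, so the sizes of these differences rest on dim values, and with normexp both were under 2-fold, at 0.59 and 0.42. Neither passed with slide as a fixed block (limma adjusted p 0.164 and 0.125). Tnfsf10, which encodes the death ligand TRAIL, fell by 2.63 on the log2 scale, from 9.63 to 10.39 in WT to between 6.49 and 8.38 in SCC (limma adjusted p 0.00014). Fasl, the death ligand of Fas, fell by 1.40 (limma adjusted p 0.00206). Its difference was under 2-fold with normexp (-0.66) and at its second probe (-0.84), and it did not pass with slide as a fixed block (limma adjusted p 0.0686), where 0 ligands were called higher and 2 lower, and 2 and 3 had an unadjusted p below 0.05.

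Of 19 tested receptors of the TNF superfamily other than those of TNF itself, 7 were called higher (36.8%, against 11.6% of all tested genes) and 6 lower (31.6%, against 13.4%). The counts were 4 and 5 with normexp, and 5 and 5 with slide as a fixed block. Tnfrsf9, the costimulatory receptor 4-1BB, was higher by 3.57 (limma adjusted p 0.00036), at 4.39 to 4.97 in WT and 6.40 to 9.42 in SCC. The WT values were dim, and with normexp it was higher by 1.69. Tnfrsf11b, which encodes osteoprotegerin, a soluble decoy for RANKL, was higher by 3.31 (limma adjusted p 0.000382). On SCC replicate 2 it was at 9.70 and on the other tumours at 12.03 to 12.47, against at most 8.70 in WT. With slide as a fixed block it was 2.93 and did not pass (limma adjusted p 0.074). Ngfr, the low-affinity nerve growth factor receptor, was higher by 2.54 (limma adjusted p 1.11e-05), and its second probe differed by 0.81 without passing (limma adjusted p 0.0993). Tnfrsf13c, the BAFF receptor of B cells, fell by 2.43 (limma adjusted p 4.4e-05). B cell markers moved with the last, 4 of 5 tested being called lower, with a summed level of 13.26 to 14.04 in WT and 11.80 to 12.07 in SCC. T cell markers did so too, 5 of 7 being called lower, with 11.77 to 12.71 in WT and 10.47 to 10.99 in SCC. Their part in the falls of Tnfrsf13c and Fasl was not tested.

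Downstream of the TNF receptors, the signalling machinery itself stayed mostly within 2-fold. Of 25 adaptors, kinases and NF-kB subunits, 1 was called higher and 1 lower (4% each, against 11.6% and 13.4% of all tested genes), with a median of 0.27. On the adjusted p alone, 10 were higher and 4 lower, most of them by less than 2-fold. Ripk3, the kinase of necroptosis, was higher by 1.18 (limma adjusted p 0.000868, and 0.0673 with slide as a fixed block), and Traf1, an adaptor of TNF receptor 2, fell by 1.28 (limma adjusted p 6.09e-05). Traf2, the adaptor shared by most of these receptors, differed by 0.33 (limma adjusted p 0.0213), and Rela, the p65 subunit of NF-kB, by -0.14 (limma adjusted p 0.136). Nfkb1 is not analysed here. Among 13 other inhibitors and brakes of NF-kB or TNF, 3 were called higher and 2 lower (23.1% and 15.4%, against 11.6% and 13.4%). Nfkbiz and Bcl3, atypical IkB proteins that also act as cofactors of NF-kB, rose by 2.11 and 2.08 (limma adjusted p 5.21e-05 and 2.83e-06). Bcl3 was at 13.60 to 14.07 on the SCC arrays and at 11.65 to 12.04 on the WT arrays. In contrast, Nfkbia, which holds NF-kB in the cytoplasm, fell by 1.09, from 15.18 to 15.42 in WT to between 13.78 and 14.56 in SCC (limma adjusted p 0.000215). It passed the adjusted p but not 2-fold without SCC replicate 2 (-0.99) and with 75th percentile scaling (-0.94). Otud7b, a deubiquitinase that restrains NF-kB, fell by 1.49 (limma adjusted p 3.82e-05), and its second probe by 0.81. Tnip3 was called higher with an adjusted p of 0.0127 (limma), but it was above background on no WT array and its SCC level was only at least 1.23-fold higher. It did not pass with the replicate number as a block (limma adjusted p 0.0523) or with slide as a fixed block (0.131 with limma).

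The response genes of the pathways gave different counts. Of 11 tested genes known to be induced by TNF or NF-kB, 3 were called higher (27.3%, against 11.6% of all tested genes) and 1 lower (9.09%, against 13.4%), and their median difference of 0.06 was near that of all tested genes. Plau, which encodes urokinase, was higher by 1.57, Tnfaip2 by 1.35 and Tnfaip8 by 1.14 (limma adjusted p 0.00969, 0.00281 and 0.000332). Vcam1, an adhesion molecule of activated endothelium, fell by 1.41 (limma adjusted p 0.000278). Endothelial markers moved with Vcam1, 7 of 8 being called lower, with a summed level of 17.56 to 17.97 in WT and 15.40 to 16.30 in SCC, and their part in its fall was not tested. With slide as a fixed block 0 genes of this list were called in either direction, with limma adjusted p of 0.146 for Plau, 0.116 for Tnfaip2, 0.0734 for Tnfaip8 and 0.0735 for Vcam1, while 3 were higher and 3 lower at an unadjusted p below 0.05.

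Of 16 acute phase and STAT3 response genes, 9 were called higher (56.2%, against 11.6% of all tested genes) and 0 lower (against 13.4%), with a median of 1.06. At an unadjusted p below 0.05, 0 were lower with limma and 0 with the methods' t-test, and leaving out 1 array gave 7 to 9 called higher, 7 without SCC replicate 1 and 9 without SCC replicate 2. With normexp 7 were called, and with slide as a fixed block 5. Neutrophil markers (5 of 10 called higher) and squamous markers (7 of 7, with a summed level of 8.60 to 8.90 in WT and 16.33 to 19.03 in SCC) moved with the list. SCC replicate 2 was the lowest tumour for all of those markers. Of the 16 genes it was the lowest for 7 (43.8%), Saa3 and Saa1 among them, and the highest for 5 (31.2%), against 30.6% and 39.2% of all tested genes. The summed level of the 16 genes was 18.38 on SCC replicate 2 and 17.70 to 18.04 on the other tumours. On the WT arrays it was 17.44 to 17.86, so the groups overlapped. The part of these cells in the list's difference was not tested. Saa3, an acute phase protein made outside the liver, was at 6.47 to 8.33 in WT, at 9.34 on SCC replicate 2 and at 12.85 to 13.38 on the other tumours. Its difference was 4.85 (SE 0.77, limma adjusted p 0.000671). Saa1 was higher by 3.44, Orm1, which encodes an acid glycoprotein of plasma, by 3.30, and Timp1, an inhibitor of matrix metalloproteinases, by 3.07 (limma adjusted p 0.000784, 5.33e-06 and 3.96e-05). Saa1 and Orm1 have close paralogs whose transcripts may bind the same probes. The paralogs Saa2 and Orm2 are also among the 9 called, so these calls may not be independent. Saa2 was above background on no WT array and could be tested only through the SCC arrays. With normexp Orm1 was at 1.99. With slide as a fixed block Saa3 and Saa1 kept their direction, at 4.25 and 2.61, and did not pass (limma adjusted p 0.0924 and 0.127).

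Il11 was called higher and the receptor genes Il6st and Lifr lower among the rest of the IL-6 family. Of 8 ligands other than Il6 and Osm, 1 was called higher (12.5%, against 11.6% of all tested genes) and 0 lower, and 0 were lower at an unadjusted p below 0.05 with limma or the methods' t-test. Il11, a gp130 cytokine, was at 7.04 to 7.28 in WT and 7.53 to 8.59 in SCC, higher by 1.08 (limma adjusted p 0.00128), and it was under 2-fold without SCC replicate 1 (0.99) and with normexp (0.74). Il11 did not pass with slide as a fixed block (limma adjusted p 0.0517). Of 5 receptor genes other than Il6ra and Osmr, 0 were called higher and 2 lower (40%, against 13.4%), and at an unadjusted p below 0.05 0 were higher with limma or with the methods' t-test. Il6st, which encodes gp130, was at 13.49, 13.07, 12.82, 12.94 and 13.26 in WT and at 11.69, 12.45, 11.73, 11.49 and 11.86 in SCC. Every tumour was below every WT lung, and SCC replicate 2 was the nearest to them. It fell by 1.27 on the log2 scale (SE 0.19, limma adjusted p 0.000523), a level 2.41-fold lower.

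Lifr, the receptor chain that pairs with gp130 for the LIF cytokine, was at 10.80, 10.42, 10.31, 10.56 and 10.45 in WT and at 9.06, 10.18, 8.65, 8.65 and 8.66 in SCC. SCC replicate 2 lay just below the WT lungs and the other tumours over 1 log2 unit below. It fell by 1.47 (SE 0.28, limma adjusted p 0.00215). Of its 5 tested probes 4 were called lower, and the fifth differed by -1.07 (limma adjusted p 0.0594). With slide as a fixed block Il6st was at -1.30 and Lifr at -1.16, and neither passed (limma adjusted p 0.0562 and 0.168). The endothelial markers given above moved with both, and their part in these differences was not tested.

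Between receptor and target, neither Stat3 nor Jak1 was called. Of 12 JAK, STAT and related genes 0 were called higher and 2 lower (16.7%, against 13.4% of all tested genes), and 4 were called lower with slide as a fixed block. At an unadjusted p below 0.05, 4 were higher and 3 lower with limma, and 4 and 3 with the methods' t-test. Stat3, the main factor of gp130 signalling, was at 13.75 ± 0.19 in WT and 13.80 ± 0.12 in SCC (SD, n = 5 each), a difference of 0.05 (limma adjusted p 0.739). Jak1, the kinase bound to gp130, differed by -0.13 (limma adjusted p 0.384). A second Jak1 probe of similar brightness differed by -0.36 and passed the adjusted p (limma, 0.0213), but not 2-fold. Stat5b and Stat4, which act in cytokine signalling of lymphocytes and other cells, fell by 1.09 and 1.07 (limma adjusted p 4.42e-05 and 0.00022). Stat4 was under 2-fold without SCC replicate 2 (-0.97) and with normexp (-0.82), and a second Stat5b probe differed by -0.20 (limma adjusted p 0.638). The T cell markers given above, 5 of 7 called lower, moved with Stat4, and their part in its fall was not tested. Transcript levels say nothing of phosphorylation. Of 12 JAK-STAT inhibitors other than Socs3, 1 was called higher and 0 lower, and 2 were lower at an unadjusted p below 0.05 with limma and 2 with the methods' t-test. This was Socs7, with a difference of 1.43 (limma adjusted p 0.0314), which was 0.99 without SCC replicate 5 and did not pass with normexp (0.53, limma adjusted p 0.0726) or with slide as a fixed block (0.93, limma adjusted p 0.498). This share of 8.33%, 1 of 12, is below the 11.6% of all tested genes called higher.

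**Figure D4:**
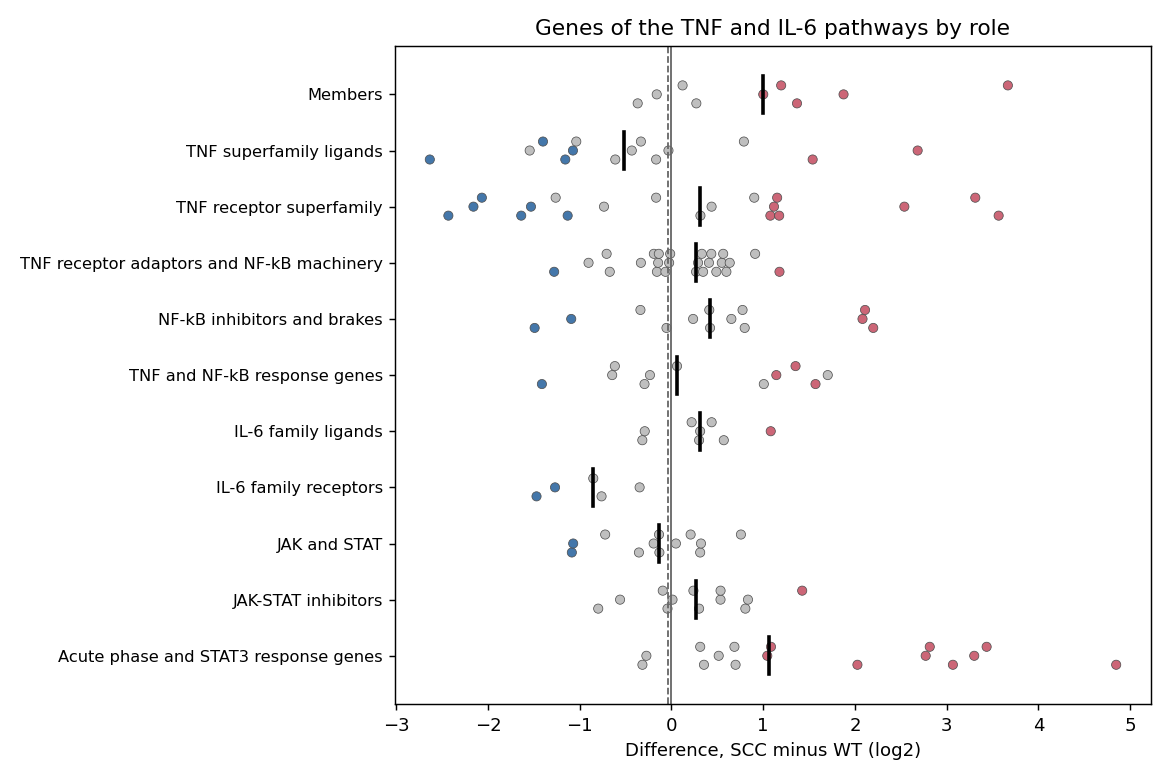
Difference SCC minus WT (log2) of each tested gene of the members and of 10 pathway lists, with genes called higher in red, called lower in blue and not called in grey; black bars are list medians and the dashed line is the median of all tested genes. Acute phase and STAT3 response genes reach 4.85 with none called lower, all 5 IL-6 family receptors lie below 0, and most adaptors lie within 2-fold.

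Among called genes measured on all 10 arrays, the profiles nearest to each called member were found by the root mean square distance over the arrays, each profile being centred on its WT mean, in a pool of 3147 genes. Nearest to Tnf were Asf1b (0.206), Rad54b (0.217) and Kntc1 (0.22). Nearest to Tnfrsf1b were Dcaf12 (0.106), Tubb6 (0.119) and Hmga1 (0.124), and nearest to Osm were Syk (0.149), Lpcat2 (0.153) and Metrnl (0.176). For Socs3 they were Kpna2 (0.0947), Ctsb (0.0955) and Rfc5 (0.0957). Il6 was left out because it was not above background on every array. These distances are a description over 10 arrays in 2 groups.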

How the data were processed

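Total RNA of 5 WT lungs and 5 SCC was hybridised to single-colour Agilent whole-mouse arrays. Groups and replicate numbers are those of the sample titles. The authors scanned the arrays and used Agilent Feature Extraction 12. Per the file headers, its output gives the processed (background-subtracted) intensity of a spot, the median intensities of spot and surround, and flags. A table of log2 values that the authors deposited correlated across probes with the values used here at r from 0.999947 to 0.999962 over the arrays, and was an alternative. The methods name quantile normalization, log2 and a one-way analysis of variance, which for 2 groups is the t-test run as an alternative (the methods' t-test).

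Spots flagged as outliers were dropped, log2 intensities of a probe's spots were averaged, and 41174 probes were quantile-normalized between arrays. The 30374 probes tested were well above background, with the flag on at least 0.5 of their spots, on at least 4 of 5 arrays of a group. SCC was set against WT with limma 3.58.1 (R 4.3.3, lmFit and eBayes, no covariates), with two-sided p-values adjusted after Benjamini-Hochberg over all tested probes. Single members were also tested by exact permutation of the group labels over the 10 arrays, two-sided. Calls needed an adjusted p below 0.05 and 2-fold. Accessions were paired with symbols through RefSeq genes (GRCm38.p6), which named 68.5% of probes. No probe was saturated. For a probe above background on no array of a group, the fold is a bound against the dimmest signal well above background. On data simulated for this comparison from 30267 probes, the fit recovered 84% of 200 probes changed by 2 log2 units, with 6 false calls. The simulated noise was independent and normal, without slides or an outlying array. In the real data 6954 of 30374 probes were called, so these rates may not carry over. The number of arrays limits the precision.

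The members, pathway lists and marker lists were chosen with earlier results of these data known. The genes named are the members, up to 4 called genes of each pathway list with the largest absolute difference, the preset genes Il6st, Lifr, Jak1, Stat3, Rela, Nfkb1, Nfkbia and Traf2, and 3 profile neighbours for each called member measured on all arrays. Alternatives were the deposited matrix, 75th percentile scaling, normexp (on median spot and surround intensities, offset 50), other filters on dim probes, replicate number and slide as blocks, slide 2 alone, array quality weights, the methods' t-test, other probes of a gene, and leaving out arrays. Fibroblast (3 of 7 called lower), alveolar type 2 (0 of 6 called, 4 lower at an unadjusted p below 0.05 with limma and 4 with the methods' t-test) and cardiac muscle (5 of 6 called lower) markers were also looked at.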

Additional observations from a re-analysis of the deposited data

Results flagged for a closer look

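In each group of 5 arrays, the gap between the highest or lowest array and its neighbour was divided by the range of the group. Of 84 such groups, for the members and the named pathway genes, 17 exceeded 0.71, where chance gives about 1 in 20 and genes on the same arrays are not independent. SCC replicate 2 accounts for 12 of them, 10 low and 2 high. It was low for the members Tnf (0.763), Tnfrsf1b (0.823), Osm (0.848) and Socs3 (0.92). It was also low for Saa3 (0.868), Saa1 (0.861), Tnfrsf11b (0.842), Bcl3 (0.719), Plau (0.81) and Tnfaip2 (0.846), and high for Lifr (0.728) and Otud7b (0.73). For all 12 of these genes the array lay on the side of the WT lungs. The markers that moved with it are given with the arrays above.

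The other gaps were Orm1 high on SCC replicate 4 (0.724), Socs7 high on SCC replicate 5 (0.821), Tnfrsf9 low on WT replicate 5 (0.716), Tnip3 high on WT replicate 4 (0.838) and Stat4 low on WT replicate 3 (0.741). SCC replicate 5 is the array with the raised share of probes above background.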

How the results depend on the processing

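The main analysis called 5 members and 45 pathway genes. Calls over all 30374 tested probes also dropped between settings, from 6954 in the main analysis to 3969 with normexp and 2989 with slide as a fixed block. Normexp gave 3 members and 32 pathway genes, slide as a fixed block 2 members and 27 pathway genes, and slide 2 alone 0 members and 0 pathway genes, where 2 members and 38 pathway genes had an unadjusted p below 0.05 with limma. Slide 2 holds a single WT array, and the fixed block draws its contrast from the same slide. Dropping the 2-fold requirement gave 77 pathway genes. Leaving out 1 array gave 4 to 5 members, the member lost being Tnfrsf1b, and 41 to 46 pathway genes. The replicate numbers do not pair the samples, with correlations of same-numbered deviations from -0.10 to 0.01, and the replicate block gave 5 members and 43 pathway genes. Among the 42 members and named genes that were refitted under the alternatives, directions reversed for 3, none of them called. Stat3 was at -0.19 with the slide block and on slide 2 alone, at -8e-04 without SCC replicates 2 and 5, and between -0.0108 and 0.1221 with 1 array left out. Jak1 was at 0.089 with the slide block and on slide 2 alone, and the second Rela probe was at 0.11. The cause was not tested. The median difference over all tested probes moved from -0.09 to 0.03 with 75th percentile scaling, and no member changed its call or direction there. Il6 had no value under the filter for all 10 arrays. Dim probes, Il6 and Osm among them, are limited by signal over background.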
